A study of Mus musculus with 6 samples.

Results

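The 9 genes described here regulate or mark the primitive endoderm: Gata6, Gata4, Sox17, Sox7, Foxa2, Hhex, Pdgfra, Dab2 and Sparc. They were picked by symbol as known transcription factors and early markers of that lineage, and they make up 9 of the 25899 gene symbols counted. Newly made RNA was captured from 6 libraries of E14tg2a mouse embryonic stem cells (129SV background) in 2 groups, with clones a, b and c giving 1 library to each. The 4OHT group received 250 nM 4-hydroxytamoxifen (4OHT) for 2 h, which switches on ERK signalling through cRAF-ErT2, a RAF kinase fused to a hormone-binding domain, and the untreated group (0 h) received none. Every clone in both groups carries the stable cRAF-ErT2 cassette. Cells of both groups were kept in serum with LIF and 2 µM CHIR99021, a GSK3 inhibitor, and for the last 24 h in serum with LIF and 250 nM PD173074, an FGF receptor inhibitor. Ethynyl uridine at 5 mM marked the RNA made in the final 15 min. No library analysed here holds cells without the cassette or cells given solvent alone, so effects of 4OHT itself and of ERK cannot be told apart.

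The primitive endoderm is the second lineage to separate inside the mouse blastocyst, beside the epiblast from which embryonic stem cells are derived. FGF4 made by epiblast cells acts through FGF receptors and ERK on their neighbours, where GATA6 is kept and NANOG is lost. GATA6 is followed by the receptor PDGFRA, by SOX17 and GATA4, and later by SOX7, while DAB2 and the matrix protein SPARC mark cells that are sorting to the surface and laying down a basement membrane. The study's design asks which transcription changes within hours of switching ERK on; for these genes the question is how much RNA they make before and after that switch.

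Sparc and Dab2, the genes called higher and lower among the 6 of the 9 that could be tested, are shown by the DNA around their RefSeq starts. The windows are RefSeq promoters of GRCm38.p6 (the assembly of mm10), read 5′ to 3′ on the gene's strand, from 250 bases before the start to 50 after it. Sparc has 1 annotated start in that table, at chr11:55420031-55420330 on the minus strand; the GENCODE span of the gene reaches further upstream. Dab2 has 2, at chr15:6299539-6299838 and chr15:6386498-6386797 on the plus strand. Capitals mark a match to the GATA motif.
Sparc: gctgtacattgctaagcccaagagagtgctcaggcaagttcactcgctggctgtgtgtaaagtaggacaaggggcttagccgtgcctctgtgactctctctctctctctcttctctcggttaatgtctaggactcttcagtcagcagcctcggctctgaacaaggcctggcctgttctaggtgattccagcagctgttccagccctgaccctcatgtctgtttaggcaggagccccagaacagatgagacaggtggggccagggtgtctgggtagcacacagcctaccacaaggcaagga
Dab2 start 1: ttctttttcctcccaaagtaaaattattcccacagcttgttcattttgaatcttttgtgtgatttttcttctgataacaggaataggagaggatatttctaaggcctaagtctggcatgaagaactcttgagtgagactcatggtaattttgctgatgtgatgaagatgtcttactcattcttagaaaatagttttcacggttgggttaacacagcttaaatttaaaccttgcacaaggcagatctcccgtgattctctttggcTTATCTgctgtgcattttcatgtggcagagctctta
Dab2 start 2: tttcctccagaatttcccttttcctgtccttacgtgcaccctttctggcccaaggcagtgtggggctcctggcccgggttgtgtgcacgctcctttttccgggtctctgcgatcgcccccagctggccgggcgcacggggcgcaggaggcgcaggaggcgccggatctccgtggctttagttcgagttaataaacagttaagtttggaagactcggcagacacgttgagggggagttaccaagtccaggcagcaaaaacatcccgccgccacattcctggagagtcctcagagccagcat

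Both strands of these windows were searched for motifs of factors that act downstream of ERK or in this lineage. The letters were CCGGAAG for ETS factors, TGANTCA for AP-1, GCGNGGGCG for EGR factors, AGATAA for GATA factors, ACAATG for SOX factors and GGGCGG for SP1. For the CArG box of serum response factor they were CCWWWWWWGG, with W for A or T. The Sparc window held none of these 7 motifs. Dab2 start 1 held a single GATA match, TTATCT, at bases 15 to 20 after the start, and start 2 held none. Among 32851 RefSeq promoters of the same length, 11.2% held the GATA motif, 8.86% the ETS, 7.81% the AP-1, 5.55% the EGR, 12.6% the SOX, 35.7% the SP1 motif and 1.63% a CArG box. Of the other genes with a RefSeq promoter, the Hhex window held 3 SP1 matches and the 3 Foxa2 windows 4 SP1 and 1 GATA match. The windows also differ in base composition: GC content was 55.3% at the Sparc start, 37.7% at Dab2 start 1 and 59.3% at Dab2 start 2, against a median of 52.7% over all promoters. They held 4, 2 and 19 CpG dinucleotides in that order.

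Sparc and Dab2 passed the test across all genes, in opposite directions. The other genes either had enough counts to test and did not pass, or were too low to judge. Thus 6 of the 9 genes were tested, and 1 was higher and 1 lower after 4OHT (edgeR quasi-likelihood test, Benjamini-Hochberg adjusted p below 0.05). In the same fit 57.1% of 13869 tested genes were called, with 28.5% of all tested genes higher and 28.6% lower, beside 2 of these 6. Levels are given as CPM, counts scaled to library totals and by TMM (edgeR's factor for differences in composition), and a log2 fold change is 4OHT over untreated with its SE. Because these are bulk libraries, fewer cells making a transcript and less transcription per cell cannot be told apart.

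**Figure D1:**
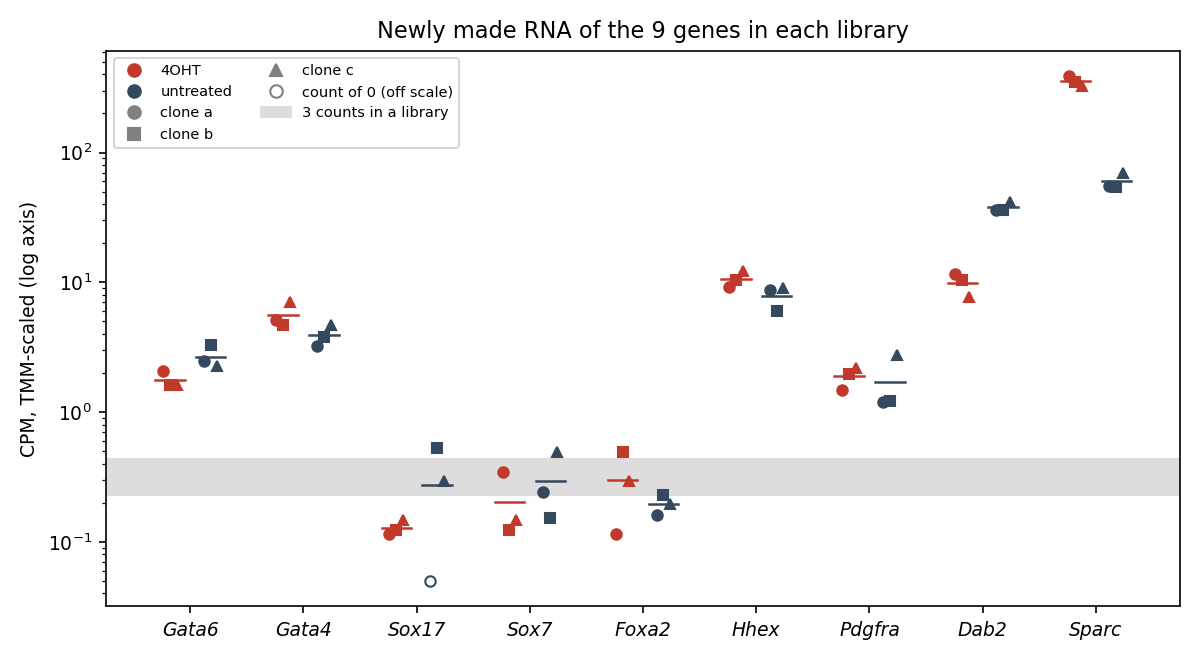
Level of each gene in each library, as TMM-scaled CPM on a log axis, with 4OHT to the left of untreated, 1 symbol per clone and a bar at the mean of 3 libraries. The grey band spans the CPM that 3 counts give in the different libraries, 0.228 to 0.438; Sox17, Sox7 and Foxa2 lie in or near it, while Sparc and Dab2 separate cleanly by group.

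Total counts were 7295334 to 9431819 per 4OHT library and 9745747 to 12168380 per untreated library, and a count of 0 allows up to 0.228 to 0.438 CPM in a library (3 counts, counting error only). The cells carried embryonic stem cell transcripts: all 8 markers of that state were tested, and their summed level was 1914 to 2312 CPM in 4OHT and 2453 to 2554 CPM in untreated libraries. The sum hides opposite changes, with 2 higher and 3 lower. Zfp42 (1020 CPM on average in 4OHT and 641 CPM in untreated libraries) and Pou5f1 were higher. Nanog (-1.66 ± 0.12), Esrrb (-1.32 ± 0.14) and Tdgf1 (-1.33 ± 0.08) were lower, and Sox2, Dppa5a and Utf1 did not pass. Markers of definitive endoderm and mesendoderm, tissues that also use Foxa2, Sox17 and Gata6, summed to 6.81 to 7.16 CPM in 4OHT and 5.61 to 7.64 CPM in untreated libraries. Only Eomes (0.39 ± 0.21, adjusted p = 0.140) and Cxcr4 (-0.73 ± 0.35, adjusted p = 0.0995) of those 8 could be tested, and Mesp1 was at 0 in all 6 libraries. Trophoblast markers summed to 238 to 308 CPM in 4OHT and 186 to 195 CPM in untreated libraries, with 2 of 6 tested higher and 1 lower. Tead4, the highest of them over all libraries, averaged 188 CPM in 4OHT and 75.7 CPM in untreated libraries. Hand1 was also higher, with 54 counts in 4OHT and 15 in untreated libraries, and passed the count filter only through the 4OHT libraries. Tfap2c was lower (-0.72 ± 0.12), and Cdx2 and Elf5 were too low to test.

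Gata6 encodes the zinc-finger factor that starts the primitive endoderm programme. Its gene lies on chromosome 18, bases 11052064 to 11085635 of GRCm38, and overlaps 1010001N08Rik, which is not in the count table. Gata6 stood at 2.06, 1.61 and 1.61 CPM in 4OHT clones a, b and c, against 2.49, 3.26 and 2.25 CPM in untreated clones a, b and c. All 3 treated libraries lay below all 3 untreated ones. The log2 fold change was -0.60 ± 0.26 (95% interval -1.18 to -0.02), on 42 counts in all with 4OHT and 97 without, and it did not pass the test (unadjusted p = 0.0435, adjusted p = 0.0718). It passed by library size alone (-0.80, adjusted p = 0.0231), a scaling that called 41.0% of all genes lower, and by upper-quartile scaling (-0.70, adjusted p = 0.0392), which called 34.3% lower.

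Gata4, a close relative that acts with GATA6 in the later steps, was at 5.14, 4.70 and 7.02 CPM in 4OHT clones a, b and c, against 3.21, 3.80 and 4.70 CPM in untreated clones. Each clone was higher with 4OHT, but the groups touched, because treated clone b and untreated clone c were nearly equal. The log2 fold change was 0.52 ± 0.22 (95% interval 0.03 to 1.01, adjusted p = 0.0651). With clone as a block, which pairs the 2 libraries of each clone, Gata4 was called higher by edgeR (0.52, adjusted p = 0.0203), in a fit that called 34.1% of genes higher, but not by DESeq2 (adjusted p = 0.173). It was also called without the untreated library of clone c (0.65, adjusted p = 0.0403), where 27.6% of genes were higher. The gene spans bases 63198922 to 63271692 of chromosome 14, minus strand.

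The point estimates of the GATA factors thus had opposite signs, and neither passed the main test. No test of the difference between the 2 genes was run.

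Sox17 and Sox7 encode related SOX factors, of which SOX17 helps fix the primitive endoderm fate and SOX7 comes on later. Both were too low to judge. Sox17 had 1, 1 and 1 counts in 4OHT clones a, b and c, against 0, 7 and 3 counts in untreated clones, so that untreated clones alone ranged from none to the highest value. Summed over clones this was 3 counts against 10. Scaled for depth the ratio was 0.454, and its 95% interval from counting error ran from 0.0803 to 1.76. Sox7 had 3, 1 and 1 counts in 4OHT clones and 3, 2 and 5 in untreated clones, a ratio of 0.757 (0.203 to 2.43). Both intervals hold falls of several fold as well as rises, so no change was detectable at this depth. With no filter on low counts, edgeR gave adjusted p = 0.466 for Sox17 and 0.745 for Sox7. The Sox17 span overlaps Gm37587, which is not in the count table.

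Foxa2, a forkhead factor of visceral and definitive endoderm, was as low. It had 1, 4 and 2 counts in 4OHT clones a, b and c, against 2, 3 and 2 counts in untreated clones. Both groups summed to 7 counts, which scaled for depth is a ratio of 1.51 (95% counting interval 0.453 to 5.06). With no filter, edgeR gave adjusted p = 0.615.

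Hhex encodes a homeobox factor of the primitive endoderm and, later, of the anterior visceral endoderm. It was at 9.14, 10.4 and 12.1 CPM in 4OHT clones, against 8.66, 5.997 and 9.02 CPM in untreated clones. The lowest treated library was just above the highest untreated one. The log2 fold change was 0.42 ± 0.19 (95% interval 0.01 to 0.83), which did not pass the test (adjusted p = 0.0776). As with Gata4, the block on clone gave a call in edgeR (0.42, adjusted p = 0.0203) and none in DESeq2 (adjusted p = 0.134). The response was uneven over clones, with log2 ratios of 0.08, 0.79 and 0.43 in a, b and c. The gene is short, 5922 bases on chromosome 19 (37434810 to 37440731), and 85.4% of it is exon in GENCODE M21.

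Pdgfra, the receptor for PDGF ligands and an early surface marker of primitive endoderm cells, was at 1.49, 1.98 and 2.19 CPM in 4OHT clones, against 1.202, 1.215 and 2.74 CPM in untreated clones. Untreated clone c was the highest of the 6 and clones a and b the lowest, so the groups overlapped fully. The log2 fold change was 0.16 ± 0.38 (adjusted p = 0.733), and its 95% interval of -0.67 to 1.00 leaves room for a change of either sign. Without the untreated library of clone c the value was 0.60 (adjusted p = 0.137), and without that of clone a or b it was -0.04. The Pdgfra span on chromosome 5 (75152292 to 75198215) overlaps Gm42803, which had no count in any library. It also overlaps the antisense gene Gm42802 and Mir7025, which are not in the count table.

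Dab2 fell. This gene encodes an endocytic adaptor of surface endoderm cells that is needed for them to settle as an outer layer. It was at 11.5, 10.4 and 7.75 CPM in 4OHT clones a, b and c, against 35.9, 36.1 and 41.4 CPM in untreated clones. The groups lay far apart, and the highest treated library was well below the lowest untreated one. The log2 fold change was -1.92 ± 0.14 (adjusted p = 1.84e-06), a level 3.78-fold lower, and 238 of 13869 tested genes fell by more. The 3 clones gave log2 ratios of -1.63, -1.79 and -2.40 for a, b and c. Dab2 spans 140925 bases of chromosome 15 (6299788 to 6440712), of which 5.21% is exon, and overlaps an antisense gene and a pseudogene that are not in the count table.

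Sparc rose. It encodes a secreted, collagen-binding matrix protein that parietal endoderm makes in large amounts. It was at 389, 352 and 327 CPM in 4OHT clones a, b and c, against 55.1, 54.4 and 70.1 CPM in untreated clones. Every treated library was several times higher than every untreated one. The log2 fold change was 2.58 ± 0.11 (adjusted p = 5.94e-08), 5.97-fold, and 156 of 13869 tested genes rose by more. The clones gave 2.82, 2.69 and 2.22 for a, b and c, so clone c had the smallest rise of Sparc and the deepest fall of Dab2. Sparc lies on chromosome 11 (55394500 to 55423183, minus strand), and no other annotated gene overlaps it.

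Sparc is made by mesenchymal cells as well as by endoderm. Of 10 fibroblast or feeder markers 3 could be tested: Twist1 (5.21 ± 0.29) and Col1a1 (3.45 ± 0.45) were higher and Pdgfrb (-0.91 ± 0.30) was lower. Summed counts were 425 in 4OHT and 17 in untreated libraries for Twist1, 68 and 9 for Col1a1, and 21 and 60 for Pdgfrb. Twist1 and Col1a1 passed the count filter only through the 4OHT libraries and Pdgfrb only through the untreated ones. The direction of each was thus favoured in advance. Pdgfrb lost its call under 12 of 20 alternatives. The summed level of the 10 was 20.8 to 25.1 CPM in 4OHT libraries and 2.89 to 4.02 CPM in untreated libraries, most of it Twist1 with 18.1 CPM on average in 4OHT libraries. Lum and Postn were at 0 in all libraries, and Col3a1 and Dcn had 0 counts with 4OHT and 4 and 6 without. The part of such cells in the Sparc result was not tested.

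**Figure D2:**
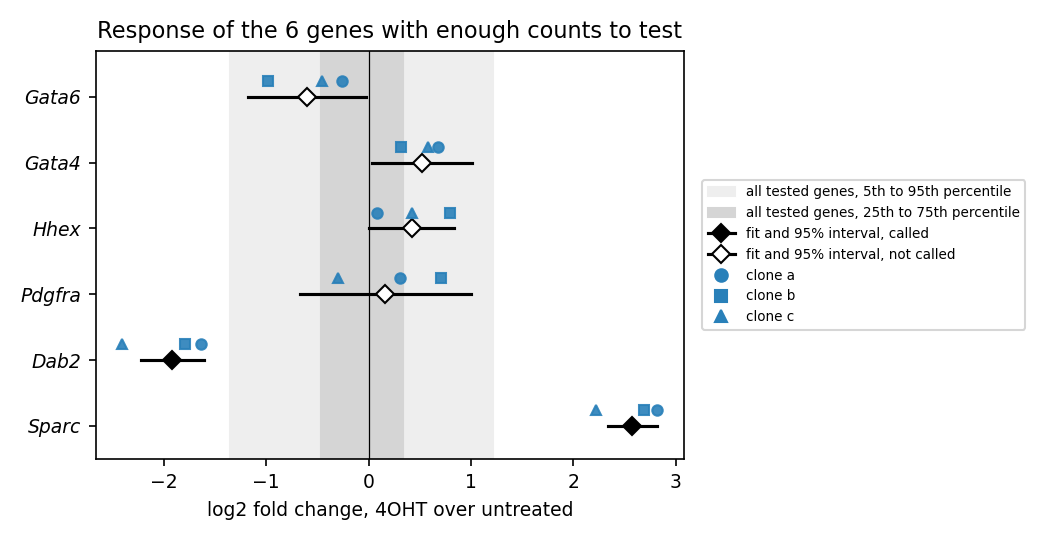
Log2 fold change (4OHT over untreated) of the 6 tested genes, with diamonds and bars for the fit and its 95% interval and blue symbols for the ratio in each clone, over the spread of all 13869 tested genes in grey. Sparc at 2.58 and Dab2 at -1.92 lie outside the range that holds the middle 90% of genes (-1.35 to 1.22), and the other genes lie inside it.

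Of the 6 tested genes, 4 had CPM ranges that did not overlap between the groups (Sparc and Hhex above, Dab2 and Gata6 below), beside 63.3% of all tested genes. Scaling matters for the smaller values: by library size alone every log2 fold change shifts by a median of -0.20, which gives 0.32 for Gata4, 0.22 for Hhex and -0.04 for Pdgfra and leaves Sparc at 2.38 and Dab2 at -2.12.

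Levels of different genes were set side by side per kilobase, with the length taken first over the union of exons and then over the whole gene span, since the counted feature is not given. Per kilobase of exon, the mean level in untreated cells was 15.8 CPM for Sparc, 5.15 for Dab2, 1.56 for Hhex, 1.00 for Gata4, 0.41 for Gata6, 0.17 for Pdgfra, 0.09 for Sox7, 0.08 for Foxa2 and 0.06 for Sox17. The libraries of neighbours in this order did not overlap from Sparc to Pdgfra, except that Hhex and Gata4 did. The last 3 rest on 7 to 10 counts each and cannot be ordered among themselves. After 4OHT, Sparc reached 94.0 CPM per kilobase of exon, Hhex (2.09) stood above Dab2 (1.35), and Gata4 (1.44) and Dab2 overlapped. Per kilobase of span the untreated order was Sparc (2.09), Hhex (1.33), Dab2 (0.27) and Gata6 (0.08), with the other 5 between 0.04 and 0.05. Among 19198 genes with a count and a single annotated length, untreated Sparc was at percentile 83.8 by exon length and 77.1 by span, and the 3 genes too low to test were at 14.7 to 17.8 by exon length. By span those 3 were at 27.2 to 28.3, where the tested genes Pdgfra (26.1) and Gata4 (29.3) also lay.

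Differences between clones were tested jointly beside the treatment. None of the 6 tested genes was called (edgeR quasi-likelihood test, smallest unadjusted p = 0.0516 and adjusted p = 0.197, both for Pdgfra), while 12.6% of all tested genes were. Pdgfra had the widest estimates, 0.93 higher in clone c than in clone a on the log2 scale. Clones b and c differed from clone a by -0.10 and -0.03 for Sparc and by -0.04 and 0.03 for Dab2.

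Gata4 and Sox7 share a chromosome. They lie 672.0 kb apart on chromosome 14 with 6 counted genes between them, and both were low in untreated cells. No other pair of the 9 genes is on the same chromosome.

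Genes around this lineage were followed in 5 lists, each read beside the 28.5% of tested genes that were higher and the 28.6% that were lower. The first holds 29 matrix genes and later markers of primitive endoderm. Of 22 tested, 6 were higher, 7 lower and 9 did not pass, with a median log2 fold change of -0.10, against -0.00 for all tested genes. Lamb1, a laminin chain, was higher (0.92 ± 0.06), as was the signalling adaptor Grb10 (1.39 ± 0.10). The laminin chain Lama1 (-1.32 ± 0.10) and the endocytic receptor Lrp2 (-0.85 ± 0.08) were lower. Of the secreted products of visceral endoderm in the list, Afp had no count and Ttr 1 count over all 6 libraries, and Apob had 16 counts in 4OHT and 29 in untreated libraries. Apoe, which other cells make too, was at 69.6 ± 8.49 CPM in 4OHT and 79.9 ± 11.9 CPM in untreated libraries (SD, n = 3 each) and did not pass (-0.20 ± 0.12, adjusted p = 0.182).

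Further genes of this list are named after their values were seen. Of its 8 laminin, type IV collagen, nidogen and perlecan genes, 1 was higher (Lamb1, like Sparc), 5 were lower and 2 did not pass, beside 28.5% higher and 28.6% lower over all tested genes. No test of these 8 was run. The type IV collagen chains Col4a1 (38.7 ± 6.63 CPM in 4OHT, 119 ± 25.3 CPM in untreated libraries, SD, n = 3 each) and Col4a2 (20.5 ± 4.13 CPM in 4OHT, 48.6 ± 11.5 CPM in untreated libraries) fell, by 1.63 and 1.24 on the log2 scale. Their spans overlap each other, and that of Col4a1 also overlaps Gm44716. The Lamc1 span overlaps Gm38009 and the Nid2 span overlaps Rtraf. The perlecan gene Hspg2 (-0.53 ± 0.07) and the laminin chain Lamc1 (-0.25 ± 0.06) were lower too, and the nidogens Nid1 (-0.22 ± 0.10, adjusted p = 0.0950) and Nid2 (0.09 ± 0.10, adjusted p = 0.462) did not pass. The Nid1 log2 fold change was called lower under 4 of 20 alternatives: by library size alone (-0.42), by upper-quartile scaling (-0.32), with the clone block in edgeR (-0.22, adjusted p = 0.00849) and without clone c (-0.32). Nid2 turned to -0.11 by library size alone. The lower count of the whole list was 9 instead of 7 with that block, under either scaling and without clone c. It was 6 without clone a and 5 without clone b. A threshold of 1 on the log2 fold change left 3 lower and 3 higher. Plat, the tissue plasminogen activator of parietal endoderm, was higher with the largest value of its list, 11.7 ± 4.79 CPM in 4OHT and 2.41 ± 0.18 CPM in untreated libraries (SD, n = 3 each, log2 fold change 2.26 ± 0.29).

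The second list holds 14 relatives and partners of the 9 genes. Of 9 tested, 2 were higher and 3 lower (median 0.01, or -0.18 by library size alone). Dab1, the neural relative of Dab2, was higher with 147 ± 5.78 CPM in 4OHT and 42.7 ± 7.29 CPM in untreated libraries (SD, n = 3 each, 1.79 ± 0.11), against the fall of Dab2. Zfpm2, a cofactor of GATA proteins, was higher (1.30 ± 0.17) and the blood factor Gata1 lower (-1.08 ± 0.16). Pdgfrb (-0.91) and Smoc1, a matrix relative of SPARC (-0.35 ± 0.12), were the other 2 lower genes, and both lost the call when untreated clone a or 4OHT clone b was left out, leaving 1 lower. Of 20 alternatives, 12 ended the call of Pdgfrb and 8 that of Smoc1.

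All 4 ligands for PDGF receptors were tested. Pdgfa, the ligand that acts on PDGFRA in the blastocyst, was higher with 88.8 ± 9.29 CPM in 4OHT and 46.4 ± 3.76 CPM in untreated libraries (SD, n = 3 each, 0.94 ± 0.09). Pdgfd (-1.35 ± 0.22), whose span overlaps Ddi1, and Pdgfb (-0.63 ± 0.15) were lower, and Pdgfc (-0.10 ± 0.10) did not pass, though it was called lower by library size alone (-0.30). The Pdgfb log2 fold change lost its call without clone b (-0.52, adjusted p = 0.0781), leaving 1 lower. Thus a ligand was called higher while its receptor gene Pdgfra stayed near the limit of what could be tested.

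Of 21 genes of FGF and ERK signalling into this lineage, 18 were higher and 2 lower, and the median was 0.56. Scaled by library size alone, 14 were higher and 3 lower, and the median was 0.36. The largest rises were in the ERK-responsive genes Egr1 (5.86 ± 0.18), Spry4 (5.16 ± 0.15) and Fos (4.98 ± 0.11). Fgf4, the ligand itself, was lower (-2.47 ± 0.10), and so was its receptor gene Fgfr1 (-0.33 ± 0.11). Fgfr1 lost the call when untreated clone b, untreated clone c, 4OHT clone a or 4OHT clone b was left out, leaving 1 lower. The other FGF receptor gene of the list, Fgfr2, counts among the 18 higher (0.34 ± 0.09, adjusted p = 0.0107), but its annotated span overlaps 69 other genes, and it lost the call by library size alone (0.14) and without untreated clone b or clone a or b in both groups. Sos1 (-0.10 ± 0.09), an exchange factor for RAS whose span overlaps Arhgef33, did not pass, but was called lower by library size alone (-0.30).

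Of 14 factors of the epiblast and the naive state, 8 were lower and 3 higher, and the median was -0.76. Scaled by library size alone, 10 were lower and 2 higher, and the median was -0.96. Nanog, the factor that GATA6 excludes, was lower (-1.66 ± 0.12), as were Tbx3 (-1.42 ± 0.11) and Sall4 (-1.15 ± 0.07), which are also known to act in extraembryonic endoderm. Prdm14, chosen after its value was seen, had the largest fall (-2.05 ± 0.20). The 3 that were higher were Klf5 (1.21 ± 0.07), Zfp42 (0.67 ± 0.09) and Pou5f1 (0.36 ± 0.06), the last also needed for primitive endoderm. So the epiblast list was called lower in most of its members, while Sparc (2.58) was called higher and Dab2 (-1.92) lower. Gata6, Gata4, Hhex and Pdgfra did not pass the test, and Sox17, Sox7 and Foxa2 stayed at a few counts. Those that did not pass had 42 (Gata6, 4OHT) to 279 (Hhex, untreated) counts summed over a group. Of the called epiblast factors, Prdm14 had 158 with 4OHT and 995 without, and Nanog 2406 and 11310. Failing the test at low counts does not show that a gene was unchanged, and an order in time was not tested.

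**Figure D3:**
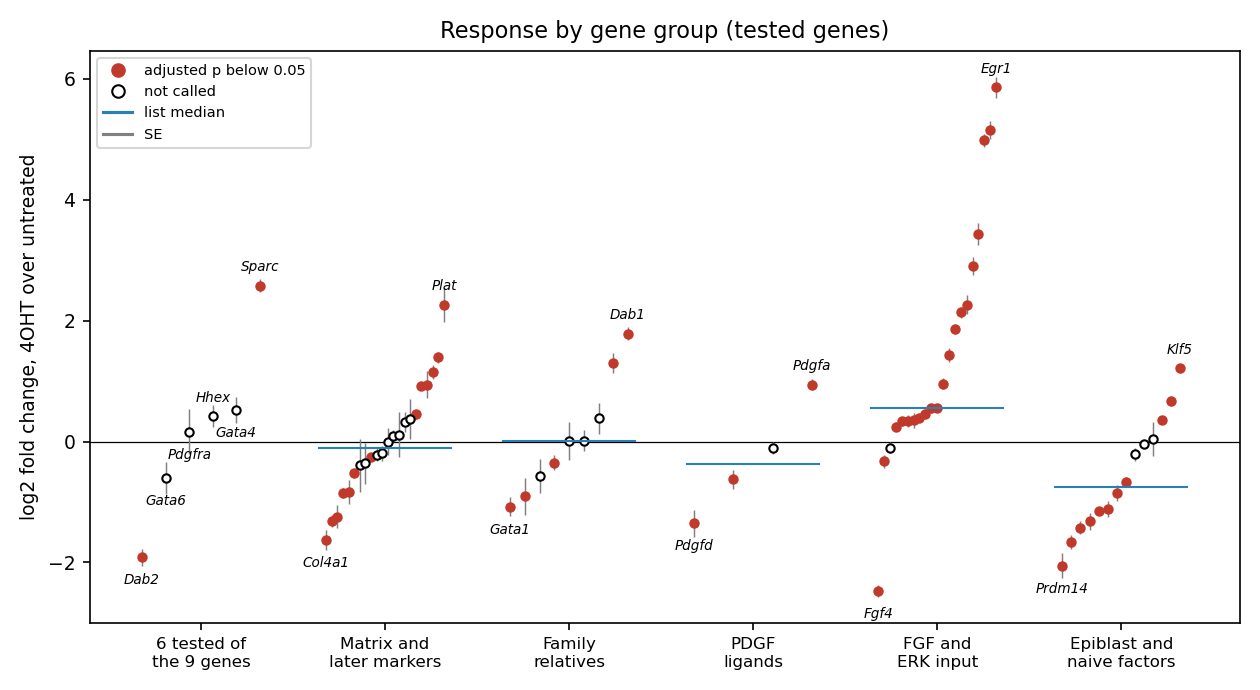
Log2 fold change (4OHT over untreated) with its SE for the tested genes of each group, sorted within a group, filled where adjusted p is below 0.05, with the list median as a blue line. The FGF and ERK genes lie mostly above 0 and the epiblast and naive factors mostly below, while the 6 tested genes of the 9 run from Dab2 at -1.92 to Sparc at 2.58.

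The genes whose profile over the 6 libraries was most like that of Sparc were Me1, Trh and Slc4a7, with root mean square differences of 0.101, 0.13 and 0.134 on the log2 CPM scale after each profile was centred, out of 11489 genes compared. For Dab2 they were Spats1, Sfrp1 and Irak3, at 0.113, 0.127 and 0.128. With 2 groups of 3 libraries, likeness of this kind takes in the log2 fold change, which was 2.51 for Me1, 2.78 for Trh and 2.37 for Slc4a7, and -1.79, -1.83 and -1.88 for Spats1, Sfrp1 and Irak3.

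**Figure D4:**
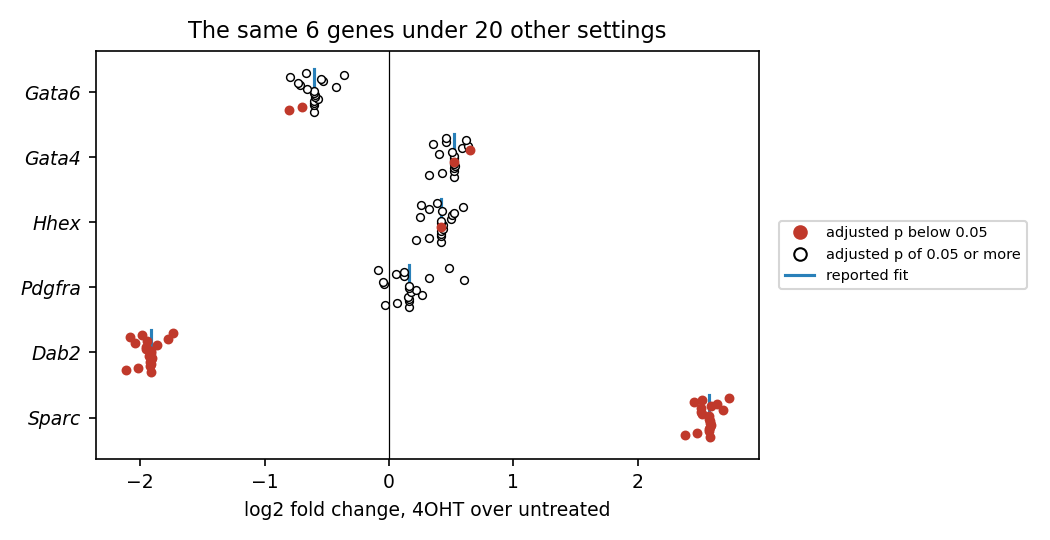
Log2 fold change (4OHT over untreated) of the 6 tested genes under 20 other settings of scaling, filter, tool, clone block, call threshold and libraries left out, filled red where adjusted p is below 0.05, with a blue line at the reported value. The settings of call threshold reuse the reported fit and repeat its value. Sparc stayed between 2.38 and 2.73 and Dab2 between -2.12 and -1.74, all past the threshold of 0.05; Gata6 and Gata4 passed it under 2 settings each and Hhex under 1.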

How the data were processed

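RNA labelled with ethynyl uridine was captured with a Click-iT kit and sequenced from NEB Next Ultra 2 libraries, per the labels' protocols. The authors deposited raw counts, whole numbers of reads per gene symbol, made with STAR and featureCounts on mm10, per the submitters' processing notes. The sources used here do not give versions, annotation, counted feature or strand setting, so reads of overlapping genes on either strand cannot be separated. No row lacked a gene name.

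All genes were fitted together in edgeR 4.0.16 (R 4.3.3): filterByExpr (minimum count 10, total 15), TMM, glmQLFit and glmQLFTest on treatment alone, Benjamini-Hochberg adjustment, called below 0.05. A gene the filter dropped was too low to judge, and got its counts and an exact conditional interval (95%) for the ratio. The SE is the log2 fold change over the square root of F. Positions and lengths came from GENCODE M21 (25557 of 25899 symbols matched once), promoters from RefSeq GRCm38.p6 (5 of the 9 genes matched; Gata4, Gata6, Sox17 and Sox7 did not). The scripts were tested on simulated counts.

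Clone letters in the labels pair the libraries, and the 2 libraries of a clone deviated together from their group means (r across genes 0.282 for a, 0.165 for b, 0.357 for c). Every pair within a group differed by more than sampling noise, with 2.29 to 11.3 chi-square units per gene, and each was kept as its own replicate. Nothing says that clones were cultured separately in time, so the p-values cover only variation among the 6 libraries, which may be technical.

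The 9 genes and all lists were chosen with earlier results of these data known. Named are all 9 genes, up to 4 tested genes per list with the smallest adjusted p, genes that complete a count of 5 or fewer, and the 3 most similar profiles of each called gene with mean log2 CPM (prior count 2) of at least 2. Alternatives were DESeq2 size factors, library size, upper-quartile scaling, no filter, CPM of at least 1 in 3 libraries, DESeq2 1.42.0, limma-voom (limma 3.58.1), a clone block, thresholds of 0.01 on adjusted p and of 1 on the size of the log2 fold change, and each library or clone left out.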

Additional observations from a re-analysis of the deposited data

How the results depend on the processing

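Sparc and Dab2 kept their direction and their call under all 20 alternatives. The thresholds of 0.01 on adjusted p and of 1 on the log2 fold change reuse the main fit, so only the call could change there. Without one replicate or clone, 2 to 3 of the 6 tested genes were called, with 1 to 2 higher. Over all genes, 5421 (without clone b) to 8487 (without clone c) were called in those fits. With the replicate block (clone) in edgeR, 4 of the 6 were called, 3 of them higher. That fit called 9348 of all 13869 tested genes, with 34.1% higher. The block ended no call among the 9. Library size alone and upper-quartile scaling each called 2 of the 6 lower, adding Gata6, beside 41.0% and 34.3% of all tested genes. The cause of these changes was not tested. The Pdgfra log2 fold change, not called in any setting, turned to -0.035 by library size and ranged from -0.0908 to 0.6036 with libraries left out. The Nid2 log2 fold change turned to -0.11 by library size and -0.0069 by upper-quartile scaling and ranged from -0.0045 to 0.18 with libraries left out. The Slc36a1 log2 fold change turned to -0.12 and -0.021 under those scalings. With libraries left out, the Sos1 log2 fold change ranged from -0.16 to 0.0047 and the Sox2 log2 fold change from -0.096 to 0.023. By library size the number of genes called higher was 2407, against 3953, so that 29.7% of calls were higher, against 49.9% (39.9% by upper-quartile scaling). A log2 fold change of at least 1 left 2271 of 7921 genes called 4OHT against untreated, with 947 genes called higher and 1324 genes called lower. Depth limits Sox17, Sox7 and Foxa2, with at most 7 counts in any library.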

Other observations

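Genes within 250 kb of Sparc, Dab2 and Gata4 were read after the values were seen, beside 28.5% higher and 28.6% lower over all tested genes. Of 7 counted genes near Sparc 4 were tested and 3 were higher: the copper chaperone Atox1 (23.5 kb away, 0.39 ± 0.09), the stress granule gene G3bp1 (46.5 kb, 0.41 ± 0.06) and the glycine receptor gene Glra1 (91.1 kb, 1.18 ± 0.33). Atox1 lost its call by library size alone (0.19) and without clone b (0.31), and Glra1 without the 4OHT library of clone b (0.92). Slc36a1, 158 kb away, did not pass (0.08 ± 0.10, or -0.12 by library size alone). The values of these neighbours were smaller than the 2.58 ± 0.11 of Sparc. Fat2, Slc36a2 and Slc36a3, the rest of the 7, were too low to test and had lower levels with 4OHT. Their counts were 13, 7 and 3 in 4OHT libraries (0.529, 0.302 and 0.139 CPM on average). In untreated libraries they were 42, 22 and 29 (1.14, 0.611 and 0.808 CPM). Near Dab2, C9 lies 4.62 kb away with 3 counts in 4OHT and 8 in untreated libraries, and Fyb, 82.1 kb away, did not pass (-0.65 ± 0.34, adjusted p = 0.126).

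Neil2, a DNA glycosylase gene 5.07 kb from Gata4 on the same strand, was lower (3.74 CPM in 4OHT and 10.2 CPM in untreated libraries, log2 fold change -1.45 ± 0.18), while Gata4 itself had 0.52 ± 0.22 and did not pass. Of the 7 tested genes within 250 kb of Gata4, 3 were higher and 2 lower.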
